A study of Mus musculus with 6 samples.

Results

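Chemokines are small secreted or membrane-bound proteins that direct the movement of white blood cells, and their receptors are the proteins through which cells sense them. The genes of this family were followed in whole mouse uteri on gestational day 4. They were chosen by name alone: a gene belonged to the set if its symbol was that of a numbered CC, CXC, CX3C or XC chemokine, of a typical chemokine receptor, of an atypical chemokine receptor or of Ccrl2. The rule found 68 of the 21936 rows of the deposited tables. Several rows shared a symbol, which left 62 of 21900 genes: 25 CC ligands, 14 CXC, CX3C and XC ligands, 18 typical receptors and 5 atypical receptors (Ackr1 to Ackr4 and Ccrl2). RNA sequencing was available for 6 libraries of whole uterus, of which 3 carry the label Mettl3 f/f and the other 3 Mettl3 d/d. All came from females of 6 to 8 weeks of age that had mated with fertile males, with the day of the vaginal plug counted as day 1. Mettl3 is the catalytic component of the methyltransferase complex behind N6-methyladenosine in RNA. As such names are commonly used, f/f stands for floxed and d/d for deleted alleles. Which Cre was used, which exons it removes and whether each replicate is another animal are not in the labels. The p-values therefore measure the spread between these libraries, which may be technical. Values of single libraries are listed in the order of replicates 1, 2 and 3 of each genotype.

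The 4 ligand subfamilies are named for the spacing of their first cysteines, and most ligands bind G protein-coupled receptors that steer cells up a gradient. Inflammatory chemokines are induced by cytokines and microbial products and draw in neutrophils, monocytes and effector lymphocytes, while homeostatic ones guide resting cells through tissues. Atypical receptors bind chemokines without classical G protein signalling and clear or redistribute them. In the uterus around implantation, chemokines from epithelium, stroma and immune cells position macrophages, dendritic cells and natural killer cells.

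The libraries were not equally alike, and d/d replicate 2 stood apart for this family. Each library summed to 535043 to 625575 FPKM (fragments per kilobase of gene, scaled to the mapped fragments of the library, the unit inferred for the deposited values), and the absolute depth is unknown. Over all genes the f/f libraries correlated at 0.9844 to 0.9883 with each other (Spearman), while d/d replicates 1, 2 and 3 correlated at 0.9670 to 0.9683, 0.9452 to 0.9468 and 0.9504 to 0.9514 with them, so that over all genes d/d replicate 3 was nearly as far from f/f as d/d replicate 2. Mettl3 itself had 30.3, 29.8 and 26.3 FPKM under f/f against 42.9, 30.1 and 46.5 under d/d, and so showed no lower level in the latter (log2 fold change 0.43, limma adjusted p = 0.202). Exons that were not removed still add to such a value, so it is no check of the labels, and every direction given here rests on them. Stromal, epithelial and smooth muscle marker genes were present in all libraries (summed levels of 1742 to 4228, 869 to 3115 and 988 to 5002 FPKM over 7, 9 and 5 genes), as whole uterus requires. Markers of immune cells differed widely. The summed level of 10 neutrophil markers was 6.52 to 13.2 FPKM under f/f against 28.4, 1118 and 29.1 under d/d, with Elane at 0 throughout. Only 5 of them were high enough to be tested, and these did not pass. Their median difference from the f/f mean on the log2(FPKM + 1) scale was 1.24, 4.75 and -0.51 in d/d replicates 1, 2 and 3. The sum in d/d replicate 3 thus does not stand for most of the tested markers. That of 11 macrophage markers was 573 to 690 FPKM under f/f against 1865, 7428 and 679 under d/d, and none of these genes was at 0 throughout. In whole tissue, more cells of a type and more RNA per cell cannot be told apart. Most results of tested members that rest on d/d replicate 2 are therefore given with and without it.

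**Figure D1:**
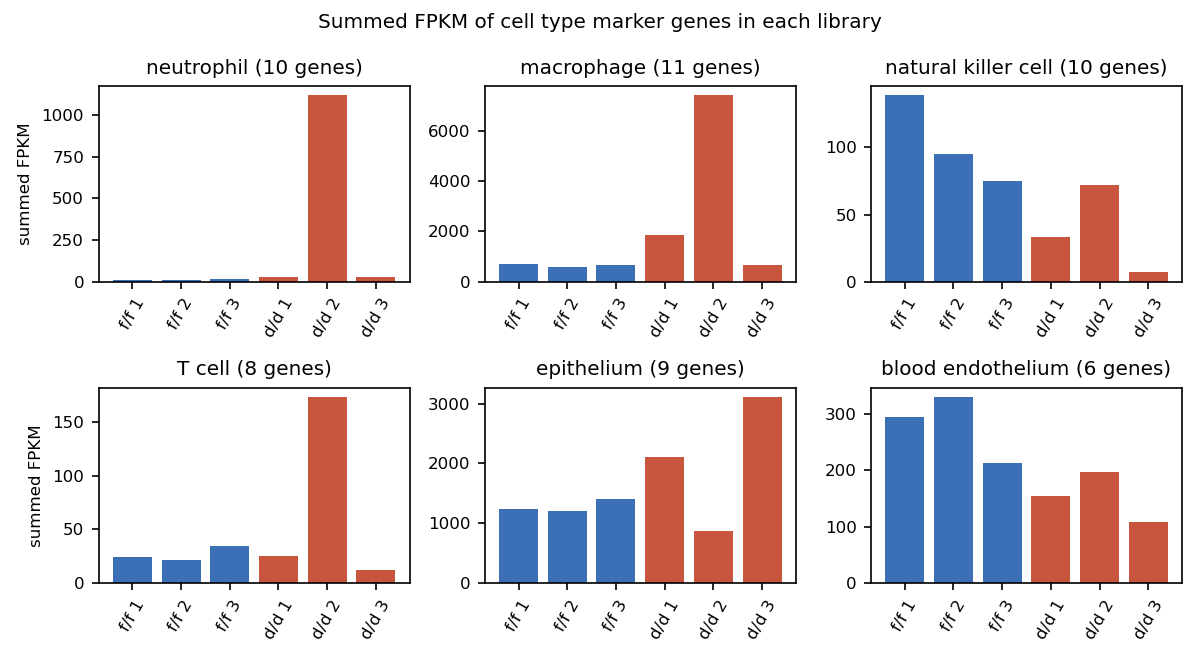
Summed FPKM of the marker genes of 6 cell types (y axis, linear) in each library (x axis), f/f in blue and d/d in red, with the number of genes in each panel title. Neutrophil, macrophage and T cell markers were highest in d/d replicate 2, natural killer cell markers were below every f/f library in all 3 d/d libraries, and epithelial markers were below every f/f library in d/d replicate 2 and above every f/f library in d/d replicates 1 and 3.

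Promoter letters are shown for 3 neighbouring genes that share a motif, for the member with both motifs searched and for 2 of the members that passed the test. RefSeq promoter windows (build GRCm38.p6, from 250 bases before to 50 bases after each start) were found for 47 of the 62 genes. They were searched on both strands for the NF-kB consensus, the site of the main inflammatory transcription factor family, and for the interferon-stimulated element (GAAA, any 2 bases, GAAA). The 2 motifs share no letters in the stretches shown. The NF-kB consensus stood in at least 1 window of 13 of the 47 genes (27.7%) and of 9.55% of all 27025 genes. The interferon-stimulated element stood in 3 of the 47 (6.38%) and in 3.99% of all genes. The neutrophil-attracting chemokine genes Cxcl1, Cxcl2 and Cxcl3, neighbours on chromosome 5, each held an NF-kB match on both strands that overlapped by all but 1 base. The letters were the same 11 in each, GGGAATTTCCC, found in the windows of 14 of the 27025 genes (0.0518%, a search made after the letters were seen). The 120 bases before each start are printed on the strand of the gene with the matches in capitals.
Cxcl1, chr5:90891125-90891244, plus strand: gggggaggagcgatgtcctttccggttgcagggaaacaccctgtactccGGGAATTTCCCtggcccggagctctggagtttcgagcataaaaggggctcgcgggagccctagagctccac
Cxcl2, chr5:90903779-90903898, plus strand: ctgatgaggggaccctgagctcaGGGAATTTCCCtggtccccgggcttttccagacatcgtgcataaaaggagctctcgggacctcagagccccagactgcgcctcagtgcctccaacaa
Cxcl3, chr5:90785981-90786100, plus strand: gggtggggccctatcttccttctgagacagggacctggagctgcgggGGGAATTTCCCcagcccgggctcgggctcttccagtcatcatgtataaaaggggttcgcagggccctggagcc
Cxcl10, the interferon-induced ligand of Cxcr3, was the only member found with both motifs. Its 250 bases before the start are printed in the same way. The first capitals are the interferon-stimulated element, and the other 2 stretches are matches to the NF-kB consensus.
Cxcl10, chr5:92348890-92349139, minus strand: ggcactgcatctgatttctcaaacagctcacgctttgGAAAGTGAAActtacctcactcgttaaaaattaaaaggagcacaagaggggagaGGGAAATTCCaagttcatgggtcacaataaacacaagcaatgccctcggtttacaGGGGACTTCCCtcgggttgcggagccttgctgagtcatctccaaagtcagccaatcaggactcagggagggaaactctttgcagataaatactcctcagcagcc
Cx3cl1 and Ackr4, described first below, held no match to either motif in their windows of 300 bases. Their 120 bases before the start are shown for comparison with those above.
Cx3cl1, chr8:94772060-94772179, plus strand: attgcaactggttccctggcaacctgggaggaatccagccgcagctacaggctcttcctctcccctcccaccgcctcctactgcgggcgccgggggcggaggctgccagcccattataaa
Ackr4, chr9:104126644-104126763, minus strand: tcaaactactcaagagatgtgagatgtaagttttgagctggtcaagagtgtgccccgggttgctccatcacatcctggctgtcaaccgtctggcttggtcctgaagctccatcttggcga
Cxcl16, Cxcl17, Cxcl5, Ccl2, Ccl5 and Ccl7 were among the genes with no entry. A match is a description of the letters, and the absence of a match says only that these letters are not in the window.

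Of the 62 genes, 5 were listed at 0 in all 6 libraries (Ccl19, Ccl21c, Ccl21d, Ccl26 and Ccl27b) and 57 had a value. A value of 0 can be a failed estimate, and Ccl19, Ccl21 and Ccl27 genes have near-identical copies in the mouse genome, so these zeros are uncertain. Genes with at least 1 FPKM in at least 3 libraries were tested, which held for 35 members: 14 CC ligands, 9 other ligands, 7 typical and 5 atypical receptors. Of these, 1 (Ccr1) reached the minimum in d/d libraries alone. Among f/f libraries the highest members were Cxcl12 at 63.8 to 75.8 FPKM, Ccl8 at 22.8 to 63.9, Cxcl14 at 23.8 to 45.4, Cxcl17 at 26.7 to 38.9 and Ccl27a at 24.5 to 36.2, ranges that overlap for all neighbours in this order. All members together summed to 446 to 536 FPKM under f/f and to 994, 3622 and 899 under d/d.

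In the labelled d/d uteri the 2 membrane-anchored chemokine genes rose and 1 atypical receptor gene fell. Cx3cl1 and Cxcl16 were higher and Ackr4 was lower at a limma adjusted p under 0.05, and 32 of the 35 tested members did not pass. Over all 12979 genes tested, 3.49% were higher and 3.81% lower, so 2 higher and 1 lower of 35 are numbers close to that background. Leaving out d/d replicate 2 gave 3 members higher and 1 lower, against 5.62% and 4.92% of all genes: the same 3 genes and Cxcl17. The calls of Cx3cl1, Cxcl16 and Ackr4 held without each single d/d library. With any 1 of the f/f libraries left out, no member passed, while over all genes the number fell from 947 to 0, 30 and 111 without f/f replicates 1, 2 and 3.

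Cx3cl1 encodes fractalkine, a ligand carried on a stalk in the cell membrane and shed by the proteases Adam10 and Adam17 (ENSMUSG00000031778, chromosome 8, 94772009 to 94782427, plus strand, GRCm38). It had 9.16, 9.81 and 10.3 FPKM under f/f against 26.9, 19.5 and 22.6 under d/d. Every labelled d/d library was above every f/f library, and d/d replicate 2 was the lowest of the d/d libraries. The mean rose from 9.74 ± 0.547 to 23.0 ± 3.70 FPKM (SD, n = 3 each), 2.36-fold, with a log2 fold change of 1.15 (SE 0.15, 95% interval 0.78 to 1.52, adjusted p = 0.0177 by limma and exact permutation p = 0.1, the smallest that 3 against 3 allow). Log2 fold changes, here and further on, subtract the f/f from the d/d mean of log2(FPKM + 1). It was 1.26 with d/d replicate 2 left out (adjusted p = 0.0138), and with 1 f/f library left out it was 1.11 to 1.18 (adjusted p = 0.0777 to 0.115). Cx3cr1, its receptor gene on monocytes and macrophages, had 7.16, 5.12 and 5.43 FPKM under f/f against 12.0, 36.0 and 5.67 under d/d. The genotypes overlapped for it, with d/d replicate 3 inside the f/f range, and it did not pass (log2 fold change 1.11, adjusted p = 0.287, and 0.44 with adjusted p = 0.404 when d/d replicate 2 was left out). The annotated Cx3cr1 gene overlaps 9 other genes.

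Cxcl16 encodes the other membrane-anchored chemokine, which also takes up oxidised lipoproteins (ENSMUSG00000018920, chromosome 11, 70453983 to 70459984, minus strand). It had 17.8, 16.7 and 15.7 FPKM under f/f against 79.7, 182 and 53.3 under d/d. The f/f libraries lay close together, and the lowest d/d library was above the highest of them. The mean rose from 16.7 ± 1.05 to 105 ± 67.9 FPKM, 6.28-fold, with a log2 fold change of 2.39 (SE 0.42, 95% interval 1.37 to 3.42, adjusted p = 0.0297 by limma and exact permutation p = 0.1). The estimate was 1.90 when d/d replicate 2 was left out (adjusted p = 0.0124), and with 1 f/f library left out 2.35 to 2.44 (adjusted p = 0.114 to 0.134). Zmynd15 lies on the other strand and shares 552 bases with Cxcl16 (9.20% of it). It had 3.65 to 5.28 FPKM under f/f against 7.01, 27.7 and 12.6 under d/d, and since the sources used here do not say whether strand was used, fragments from the shared part cannot be told apart. Cxcr6, the receptor gene of Cxcl16 on T cells and innate lymphocytes, had 1.56, 1.48 and 5.46 FPKM under f/f against 4.55, 29.7 and 1.74 under d/d. Its values overlapped and it did not pass (log2 fold change 1.17, adjusted p = 0.454, and 0.18 with adjusted p = 0.856 when d/d replicate 2 was left out). All of Cxcr6 lies within Fyco1 on the other strand, so part of the fragments cannot be told apart. Fyco1 had 8.54 to 10.2 FPKM under f/f against 6.26 to 7.20 under d/d.

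The macrophage marker sum had the same order as Cxcl16 over the labelled d/d libraries. In d/d replicate 3 that sum was inside the f/f range (679 against 573 to 690 FPKM), where Cxcl16 was above every f/f library. The part of macrophages in the level of Cxcl16 was not tested. Epithelial markers summed to 1210 to 1406 FPKM under f/f and to 2107, 869 and 3115 under d/d, above every f/f library in d/d replicates 1 and 3 and below in replicate 2. Of the 9 epithelial markers, 3 were higher, 0 lower and 6 did not pass. When d/d replicate 2 was left out, 6 were higher and 0 lower. The part of the epithelium in the levels of Cx3cl1 and Cxcl16 was not tested.

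Ackr4 encodes a scavenger receptor that removes the chemokines Ccl19, Ccl21 and Ccl25 (ENSMUSG00000079355, chromosome 9, 104084157 to 104126933, minus strand). It had 17.0, 10.1 and 7.05 FPKM under f/f against 1.31, 0.121 and 2.16 under d/d. All labelled d/d libraries were below all f/f libraries, and d/d replicate 2 was the lowest. The mean fell from 11.4 ± 5.07 to 1.20 ± 1.02 FPKM, with a log2 fold change of -2.54 (SE 0.46, 95% interval -3.65 to -1.42, adjusted p = 0.0316 by limma and exact permutation p = 0.1). Leaving out d/d replicate 2 gave -2.11 (adjusted p = 0.0294), and leaving out 1 f/f library gave -2.81 to -2.23 (adjusted p = 0.0872 to 0.136). The call was also lost with a pseudocount of 0.1 (adjusted p = 0.0656) and with no filter on low values (adjusted p = 0.0530). Acad11 lies over the whole of Ackr4 on the other strand and had 11.1 to 13.5 FPKM under f/f against 6.56 to 8.30 under d/d (log2 fold change -0.58, adjusted p = 0.0748), so part of the fragments cannot be told apart. Gland markers summed to 39.0, 48.6 and 43.9 FPKM under f/f against 19.4, 8.21 and 20.7 under d/d, below every f/f library and in the same order over the d/d libraries as Ackr4. Of these 5 markers, 3 were tested: 1 was lower, 0 were higher and 2 did not pass. The tested ones were also compared with their f/f means on the log2(FPKM + 1) scale. Their median difference was 0.23, -0.92 and -1.72 in d/d replicates 1, 2 and 3, an order that Ackr4 did not share. Blood endothelial markers summed to 293, 330 and 213 FPKM against 154, 196 and 108, also without overlap. The sums of stromal markers (2895, 3076 and 2746 against 1742, 4228 and 3296) and lymphatic endothelial markers (12.4, 22.7 and 9.83 against 13.1, 30.3 and 27.8, with Pdpn at 0 throughout) overlapped. The part of these cells in the level of Ackr4 was not tested.

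**Figure D2:**
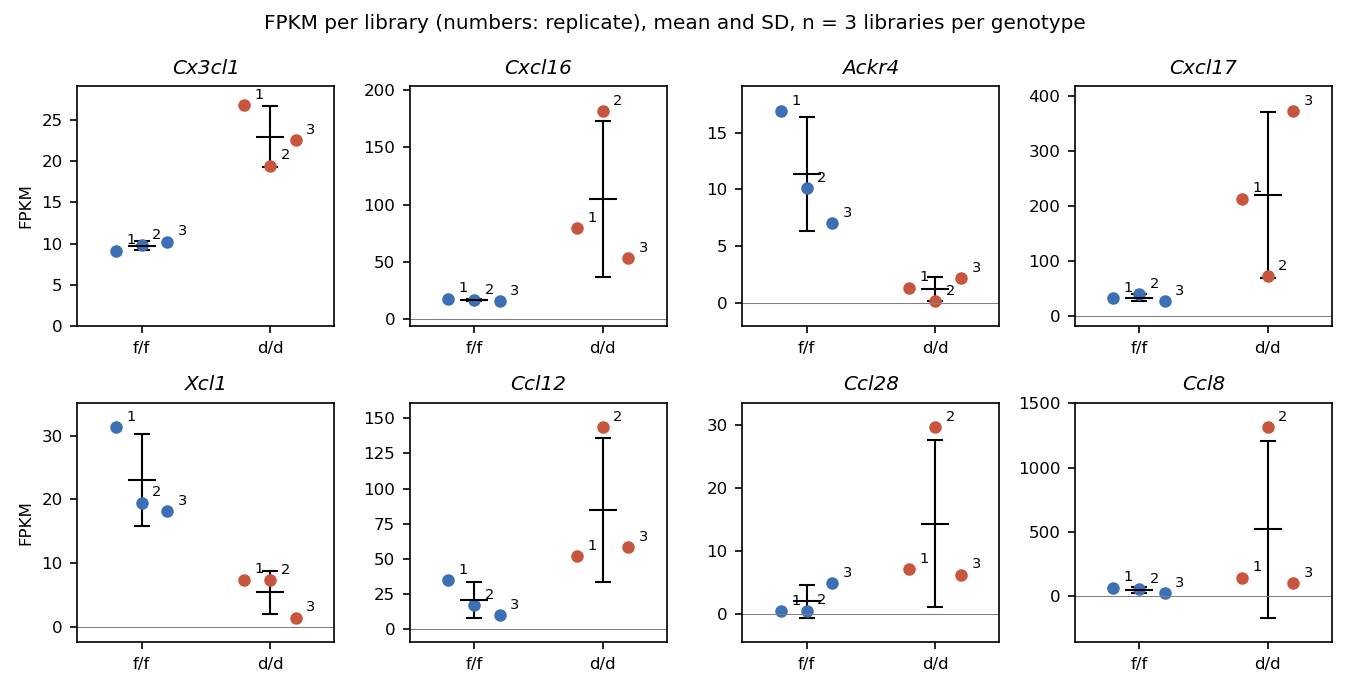
FPKM (y axis, linear) of 8 chemokine and receptor genes in f/f (blue) and d/d (red) libraries, with the replicate number beside each point and bars for the mean and SD (n = 3 per genotype). Each gene's genotypes did not overlap. In Cx3cl1, Cxcl17 and Xcl1 the d/d libraries farthest from f/f were replicates 1, 3 and 3, while in Cxcl16, Ccl12, Ccl28, Ccl8 and Ackr4 it was replicate 2.

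Of the scavenged ligands, Ccl25, known from thymus and gut, had 3.81, 3.56 and 3.89 FPKM under f/f against 4.62, 4.39 and 6.29 under d/d. The genotypes did not overlap, but the log2 fold change was 0.35 and did not pass (95% interval -0.07 to 0.76, limma adjusted p = 0.254). Its receptor gene Ccr9 had 0.0279 to 0.222 FPKM under f/f against 0.0423, 1.37 and 0.0301 under d/d. Ccl21a was listed at 0 in 4 libraries and had 3.31 and 6.50 FPKM in f/f and d/d replicate 2. Ccl21b had 5.13 and 1.07 FPKM in d/d replicates 2 and 3 with zeros in the other 4 libraries. Ccr7, the receptor gene of Ccl19 and Ccl21 on dendritic cells and lymphocytes, was at 0.162 to 0.226 FPKM in 4 libraries, at 0.138 in d/d replicate 3 and at 4.83 in d/d replicate 2.

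The other 3 atypical receptors and Ccrl2 did not pass. Ackr3, which scavenges Cxcl12, had 12.5, 10.0 and 11.8 FPKM under f/f against 6.40, 7.01 and 18.9 under d/d, below every f/f library in 2 of the d/d libraries and above in the other one. Ccrl2, which binds the attractant chemerin, had 3.75, 3.95 and 2.91 FPKM under f/f against 10.0, 15.2 and 2.52 under d/d (limma adjusted p = 0.328). Only d/d replicate 3 kept it from lying above f/f throughout, and without that library it passed (log2 fold change 1.57, adjusted p = 0.0296). Without d/d replicate 2, its highest library, the log2 fold change was 0.46 (adjusted p = 0.56). Ackr1, the Duffy antigen receptor of venules, ranged from 2.82 to 7.30 FPKM in f/f and from 2.09 to 13.6 in d/d libraries. Ackr2, which clears inflammatory CC ligands, ranged from 0.818 to 1.68 and from 0.943 to 2.08. Both overlapped, and the log2 fold changes of Ackr1, Ackr2 and Ackr3 turned sign with single libraries left out.

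Among the tested members that did not pass, Cxcl17 and Xcl1 had the lowest p. Cxcl17 encodes a chemokine of mucosal epithelia (chromosome 7, 25400053 to 25412886, minus strand). It had 31.3, 38.9 and 26.7 FPKM under f/f against 213, 71.5 and 373 under d/d, the highest member of all in d/d replicates 1 and 3. The genotypes did not overlap, with a log2 fold change of 2.45 (SE 0.57, 95% interval 1.06 to 3.84, adjusted p = 0.0569 by limma and exact permutation p = 0.1). When d/d replicate 2 was left out, Cxcl17 passed at 3.10 (adjusted p = 0.0110), as it did with array weights, which give less weight to libraries that stray (2.38, adjusted p = 0.0217). The weights were 0.747, 0.377 and 0.258 in d/d replicates 1, 2 and 3 and 1.34 to 3.51 in f/f libraries. The library with the highest Cxcl17, d/d replicate 3, thus had the lowest weight. The antisense gene 4732471J01Rik covers all of Cxcl17. The order of the d/d libraries in Cxcl17 was that of the epithelial marker sum (3115, 2107 and 869 FPKM in replicates 3, 1 and 2). In d/d replicate 2 that sum was below every f/f library, where Cxcl17 was above all of them, and the part of the epithelium in its level was not tested.

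Xcl1, lymphotactin, is made mainly by natural killer cells and CD8 T cells (chromosome 1, 164931644 to 164935527, minus strand). It had 31.3, 19.5 and 18.2 FPKM under f/f against 7.40, 7.37 and 1.46 under d/d. All d/d libraries were below all f/f libraries, with a log2 fold change of -2.07 which was not past the threshold (SE 0.52, 95% interval -3.32 to -0.81, adjusted p = 0.0667 by limma and exact permutation p = 0.1). Leaving out d/d replicate 2 gave -2.36 (adjusted p = 0.0534), while leaving out d/d replicate 3 let it pass at -1.48 (adjusted p = 0.0388). Gm20743 covers all of Xcl1 on the other strand. The receptor gene Xcr1, a mark of cross-presenting dendritic cells, had 0.412 to 0.695 FPKM under f/f against 0.656, 1.98 and 0.157 under d/d. The sum of 10 natural killer cell markers was 139, 95.4 and 74.8 FPKM in f/f libraries and 33.2, 72.0 and 7.13 in d/d replicates 1 to 3, below every f/f library in each and lowest in the library with the lowest Xcl1. None of these markers was at 0 throughout. Of the 10, 1 was lower (Prf1, the perforin gene, log2 fold change -1.48, adjusted p = 0.0289), 0 were higher and 9 did not pass. When d/d replicate 2 was left out, 3 were lower. Gzmb, a granzyme gene, had 36.9, 20.5 and 26.4 FPKM under f/f against 3.33, 7.10 and 0.150 under d/d (adjusted p = 0.0532). The part of these cells in the level of Xcl1 was not tested.

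Among all 57 members with a value, the genotypes did not overlap in 10 that were higher and 3 that were lower in labelled d/d libraries, where 15.5% and 15.6% of all 17739 genes with a value did so. Besides Cx3cl1, Cxcl16, Cxcl17 and Ccl25, the higher ones included Ccl12, Ccl28, Ccl8, Ccl9 and Ccr1, and besides Ackr4 and Xcl1, the lower one was Ccr10. The CC ligands among them are described next, by the block of neighbouring genes they belong to.

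A block of 6 CC ligand genes on chromosome 11 (82035571 to 82305690) holds the monocyte attractants Ccl2, Ccl7 and Ccl12, the eosinophil attractant Ccl11, Ccl8 and Ccl1. Ccl12, a mouse ligand of Ccr2, had 34.7, 17.3 and 10.2 FPKM under f/f against 52.1, 144 and 58.5 under d/d, with no overlap (log2 fold change 1.99, limma adjusted p = 0.0775). The value was 1.53 without d/d replicate 2 (adjusted p = 0.0995). Ccl8 had 63.9, 48.7 and 22.8 FPKM under f/f against 142, 1314 and 99.2 under d/d. The genotypes did not overlap, and d/d replicate 2 held the highest value of any member in any library, 36.3% of the summed FPKM of all members in that library. The log2 fold change of Ccl8 was 2.65 and did not pass (95% interval 0.25 to 5.04, adjusted p = 0.154), and it was 1.49 without d/d replicate 2 (adjusted p = 0.0931).

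Ccl2 had 3.84, 3.27 and 1.06 FPKM under f/f against 3.72, 34.9 and 10.8 under d/d. Ccl7 had 9.93, 10.2 and 2.86 FPKM under f/f against 10.2, 41.1 and 43.2 under d/d. For both, d/d replicate 1 lay near the top of the f/f range and only the other d/d libraries stood clear of it (adjusted p = 0.181 and 0.145, and 0.237 and 0.234 when d/d replicate 2 was left out). Ccl7 passed without d/d replicate 1 (log2 fold change 2.47, adjusted p = 0.0469). Ccl11 had 2.52 to 4.69 FPKM under f/f against 2.06, 9.93 and 31.0 under d/d. Ccl1, a ligand of Ccr8, was listed at 0 in 3 libraries and reached 1.56 FPKM in d/d replicate 2. Ccr2, the receptor gene of Ccl2, Ccl7 and Ccl12 on monocytes, had 13.8, 11.3 and 10.6 FPKM under f/f against 11.1, 80.7 and 8.96 under d/d. Only d/d replicate 2 was above f/f, and the log2 fold change of Ccr2 turned from 0.74 to -0.22 without it (adjusted p = 0.586 and 0.443).

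A second block on chromosome 11 (83525778 to 83664683) holds Ccl5, Ccl9, Ccl6, Ccl3 and Ccl4, attractants of monocytes, macrophages and T cells among others, and all 5 were highest in d/d replicate 2. Ccl6 had 28.8, 27.3 and 26.1 FPKM under f/f against 73.8, 356 and 19.8 under d/d, so replicates 1 and 2 were above and replicate 3 below every f/f library (adjusted p = 0.348, and 0.584 without d/d replicate 2). Ccl9 had 5.94, 4.53 and 2.94 FPKM under f/f against 6.69, 129 and 13.3 under d/d, with no overlap (log2 fold change 2.19, adjusted p = 0.230, and 0.97 with adjusted p = 0.140 without d/d replicate 2). Ccl5, made by T cells and natural killer cells among others, had 14.3, 12.7 and 21.8 FPKM under f/f against 16.0, 191 and 5.45 under d/d. Its log2 fold change turned from 0.71 to -0.69 without d/d replicate 2 (adjusted p = 0.734 and 0.367). Ccl3 and Ccl4 were at 0.735 to 1.90 and 1.70 to 3.30 FPKM in f/f libraries, at 6.15 and 8.07 in d/d replicate 1, at 24.6 and 16.6 in d/d replicate 2, and inside the f/f range in d/d replicate 3. Neither passed with all libraries (limma adjusted p = 0.246 for Ccl3 and 0.218 for Ccl4) or without d/d replicate 2 (0.338 and 0.324). Ccl4 passed only without d/d replicate 3 (log2 fold change 1.84, adjusted p = 0.0470).

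The receptor genes Ccr9, Cxcr6, Xcr1, Ccr1, Ccr3 and Ccr2 lie near each other on chromosome 9, and all 6 were highest in d/d replicate 2. Ccr1, carried by monocytes and neutrophils, had 0.585, 0.495 and 0.496 FPKM under f/f against 1.06, 21.6 and 1.09 under d/d. The genotypes did not overlap, but Ccr1 was tested only because it reached 1 FPKM in the d/d libraries (limma adjusted p = 0.319, and 0.171 without d/d replicate 2). Ccr3, the eosinophil receptor gene, reached 0.190 FPKM at most. Macrophage markers, of which 1 was higher (Cd68), 0 lower and 10 did not pass, were highest in the same library. Their part in the levels of these ligands and receptors was not tested.

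**Figure D3:**
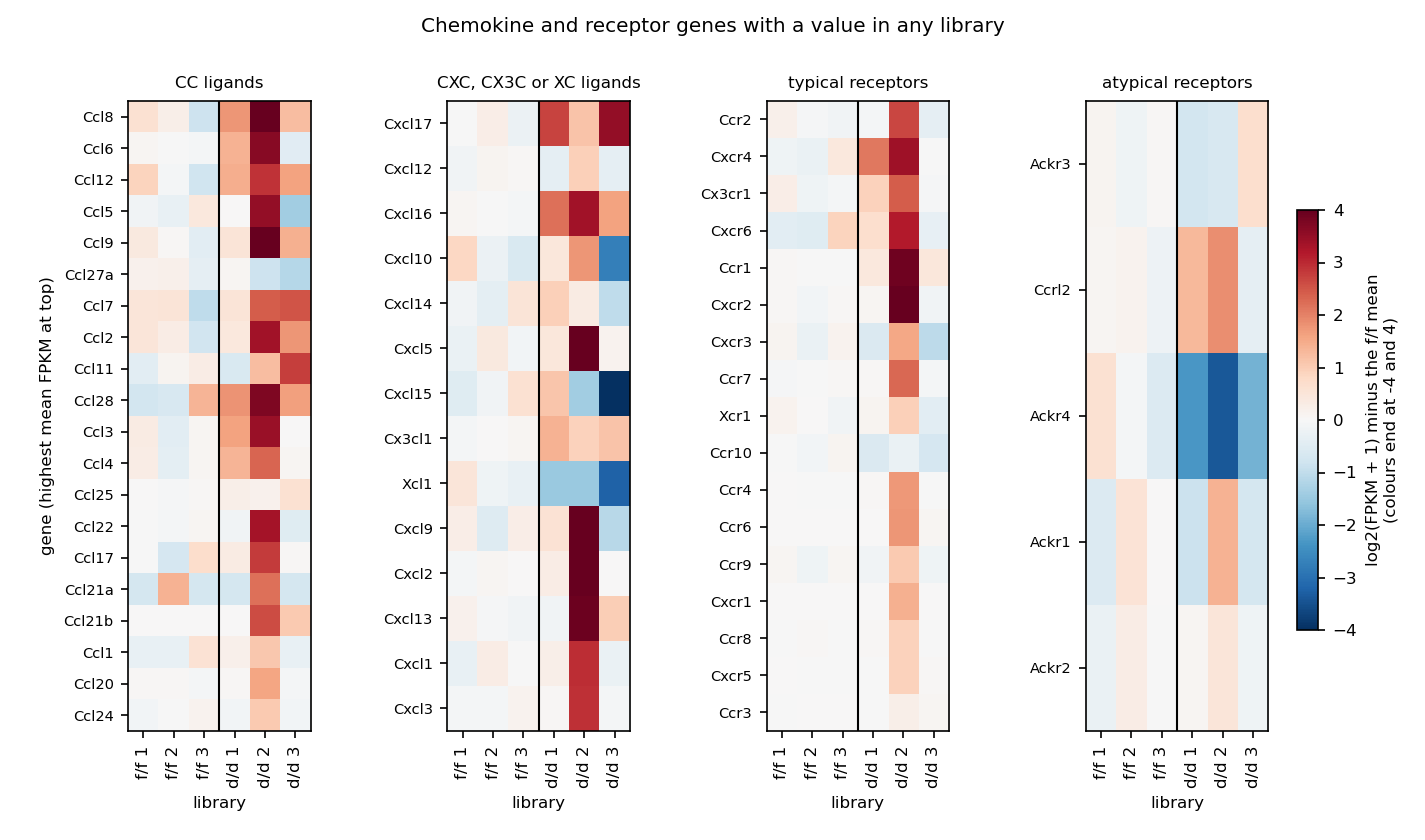
Difference of each member from its f/f mean on the log2(FPKM + 1) scale (colour, red higher and blue lower, ending at -4 and 4), with libraries as columns and 56 of the genes with a value as rows in 4 classes; zeros enter as deposited. The column of d/d replicate 2 is red for most genes. Some genes differ the same way in all 3 d/d columns, among them Cx3cl1, Cxcl16 and Cxcl17 (red) and Ackr4 and Xcl1 (blue).

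The neutrophil-attracting ligands Cxcl1, Cxcl2, Cxcl3 and Cxcl5 were seen at 1 FPKM or more in d/d replicate 2 alone. They bind Cxcr2 and are induced by infection and injury. They stood at no more than 0.696 FPKM in f/f libraries, 0.799 in d/d replicate 1 and 0.435 in replicate 3, and at 9.19, 45.5, 6.89 and 201.6 FPKM in d/d replicate 2. Cxcr2 itself had 0.0597 to 0.179 FPKM under f/f against 0.201, 18.7 and 0.0303 under d/d, and Cxcr1 was listed at 0 in all libraries but d/d replicate 2, at 1.68 FPKM. None of these 6 genes had enough libraries above 1 FPKM to be tested. The neutrophil markers S100a8 and S100a9 were at 406 and 560 FPKM in that library and at 7.09 or less in the others, and their part in these levels was not tested. Cxcl15, in the same chromosome 5 block (90759360 to 90905938) and known from lung epithelium and uterine glands, was not highest in that library. Its f/f libraries held 15.5, 20.2 and 34.6 FPKM, with 49.1 and 7.87 in d/d replicates 1 and 2 and a listed 0 in replicate 3. It did not pass (adjusted p = 0.483, and 0.516 without d/d replicate 2). The sum of the 5 gland markers, given above, was lowest in d/d replicate 2 and highest in replicate 3 among the d/d libraries. Cxcl15 did not share that order. The median difference of the 3 tested gland markers, also given above, was 0.23, -0.92 and -1.72 in d/d replicates 1, 2 and 3. Cxcl15 did share this order, and the part of the glands in its level was not tested.

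The lymphocyte attractants Cxcl9 and Cxcl10 and their receptor gene were likewise highest in d/d replicate 2. Cxcl9 and Cxcl10, induced by interferon gamma, were at 1.71 to 3.72 and 17.0 to 47.4 FPKM in f/f libraries. In d/d replicates 1 to 3 Cxcl9 was at 4.88, 66.4 and 0.796 FPKM, and Cxcl10 was at 36.4, 92.6 and 3.10. Both were thus above every f/f library in d/d replicate 2 and below every one in d/d replicate 3. Cxcl10 lies within Art3, a gene on the other strand at 4.81 to 19.9 FPKM. Their receptor gene Cxcr3 had 1.83 to 2.69 FPKM under f/f against 1.24, 8.94 and 0.644 under d/d. None of the 3 passed (adjusted p = 0.584, 0.942 and 0.985), and all 3 had negative log2 fold changes without d/d replicate 2 (-0.27, -1.14 and -0.81). T cell markers summed to 21.4 to 34.1 FPKM in f/f libraries and to 25.2, 173 and 12.2 in d/d replicates 1 to 3. They showed the same order over the d/d libraries, and their part was not tested.

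Among ligands of dendritic cells and regulatory T cells, Ccl22 had 0.395 to 0.565 FPKM under f/f against 0.342, 13.8 and 0.0608 under d/d. Ccl17 was listed at 0 in f/f replicate 2, was at 0.602 and 1.60 FPKM in the other f/f libraries and at 1.01, 10.3 and 0.644 in d/d replicates 1 to 3. Their receptor gene Ccr4 was at 0.0659 FPKM or less in all libraries but d/d replicate 2, at 2.42. Ccl22 and Ccl17 flank Cx3cl1 on chromosome 8 (94745590 to 94812036), and of these 3 neighbours only Cx3cl1 was not highest in d/d replicate 2. The B cell pair Cxcl13 and Cxcr5 reached 16.4 and 0.922 FPKM in that library, where f/f libraries held 0.307 and 0.0237 at most. The pair Ccl20 and Ccr6 reached 2.20 and 2.41 FPKM there. Ccl24, Ccr8 and Ccl1 reached 1.21, 0.920 and 1.56 FPKM.

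The largely constitutive ligands Cxcl12 and Cxcl14 did not pass. Cxcl12, which retains cells that carry Cxcr4, had 63.8, 75.8 and 73.9 FPKM under f/f against 55.1, 139 and 55.6 under d/d (log2 fold change 0.08, 95% interval -0.80 to 0.97, adjusted p = 0.909). It was below every f/f library in d/d replicates 1 and 3 and above in replicate 2, and the log2 fold change turned to -0.35 without the latter (adjusted p = 0.144). Cxcr4 had 3.66, 3.34 and 5.92 FPKM under f/f against 21.3, 53.2 and 4.10 under d/d (log2 fold change 1.82, adjusted p = 0.219, and 1.04 with adjusted p = 0.329 without d/d replicate 2). It passed when d/d replicate 3 was left out (2.74, adjusted p = 0.0338). Cxcl14, an epithelial and stromal chemokine, ranged from 23.8 to 45.4 FPKM in f/f and from 15.0 to 60.8 in d/d libraries. Its log2 fold change was 0.08 and turned sign with single libraries left out.

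The mucosal ligands of Ccr10 did not pass either. Ccl28 had 0.396, 0.494 and 4.89 FPKM under f/f against 7.06, 29.6 and 6.18 under d/d. The genotypes did not overlap, although f/f replicate 3 stood near the d/d libraries, and the log2 fold change of 2.39 did not pass (limma adjusted p = 0.113, and 1.72 with adjusted p = 0.154 without d/d replicate 2). Ccl27a had 35.5, 36.2 and 24.5 FPKM under f/f against 33.4, 17.5 and 13.7 under d/d (log2 fold change -0.63, adjusted p = 0.288). Their receptor gene Ccr10 had 0.982, 0.862 and 1.13 FPKM under f/f against 0.340, 0.658 and 0.242 under d/d, with every d/d library below every f/f library, and was too low to be tested. Ccr10 lies within Cntnap1 on the other strand, which fell from 6.14 to 6.88 FPKM in f/f to 1.78 to 3.85 in d/d libraries (log2 fold change -1.12, adjusted p = 0.0479), so fragments of these genes cannot be told apart.

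Counted over the 57 members with a value, 50 were above every f/f library in d/d replicate 2 (87.7%), where 39.7% of all 17739 genes with a value were. In d/d replicate 1 it was 25 members (35.9% of all genes) and in d/d replicate 3 it was 19 (37.9%). Below every f/f library were 9, 6 and 19 members in d/d replicates 1, 2 and 3, against 33%, 33.8% and 36.8% of all genes. The highest of the 6 libraries was d/d replicate 2 in 45 members, against 23.3% of all genes, d/d replicate 1 in 3 members (13.6%) and d/d replicate 3 in 5 members (25.9%). In 29 members d/d replicate 2 was at least 2 above the f/f mean on the log2 scale, against 3.18% of all genes, while 3 members each were so in d/d replicates 1 and 3 (0.868% and 1.82% of all genes). At least 2 below that mean were 1, 1 and 3 members in d/d replicates 1, 2 and 3, against 0.586%, 1.23% and 1.58% of all genes. The members' median difference from the f/f mean on that scale was 0.10, 2.20 and -0.04 in d/d replicates 1, 2 and 3. The median log2 fold change of the 57 members between the genotypes was 0.91 with all libraries and 0.02 without d/d replicate 2, where that of all genes was 0.01 with all libraries. Over the 35 tested members alone it was 1.13 with all libraries and 0.44 without d/d replicate 2. That of all genes tested was 0.02 and 0.01. The members share libraries, so these counts describe the 6 libraries and are not replicates.

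**Figure D4:**
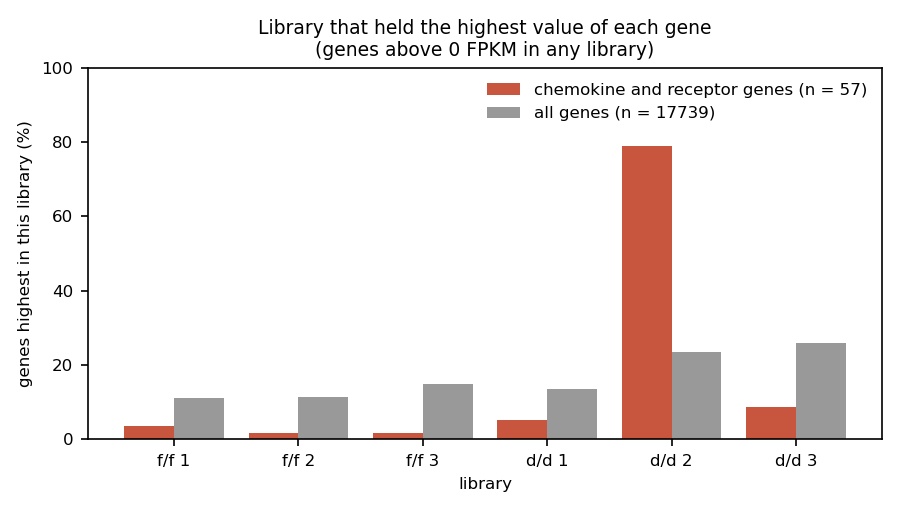
Share of genes (y axis, percent) whose highest value among the 6 libraries fell in each library (x axis), for the 57 chemokine and receptor genes with a value (red) and for all 17739 genes with a value (grey). d/d replicate 2 held the highest value of 78.9% of the chemokine and receptor genes and of 23.3% of all genes.

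**Figure D5:**
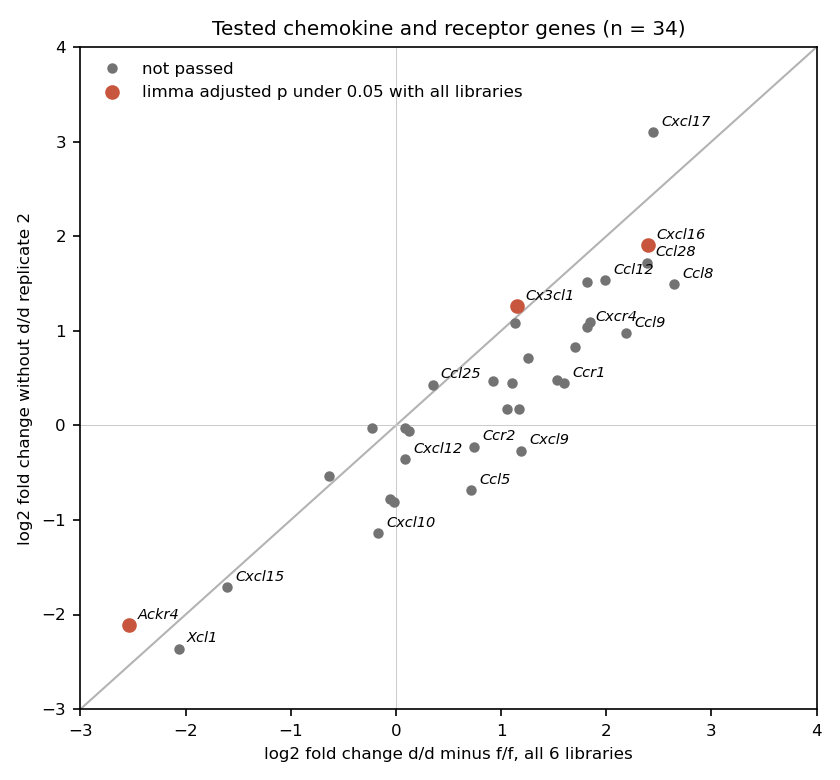
Log2 fold change (d/d minus f/f, log2(FPKM + 1) scale) of 34 of the tested members with all libraries (x axis) and without d/d replicate 2 (y axis), with the line of equal values and the members with an adjusted p under 0.05 in red. All but 6 points lie below the line (Ackr3, Ackr4, Ccl25, Ccl27a, Cx3cl1 and Cxcl17 lie above it), and Ackr2, Ccl5, Ccr2, Cxcl9, Cxcl12 and Cxcl14 change sign.

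Genes around the chemokine system were read from lists. Of 12 tested genes that process or present chemokines, 2 were higher, 0 lower and 10 did not pass, where 3.49% of all genes tested were higher and 3.81% lower. The higher ones were Hs6st1, a heparan sulfate 6-O-sulfotransferase gene, at 19.0, 19.7 and 19.1 FPKM in f/f and 63.4, 50.3 and 56.7 in d/d libraries (log2 fold change 1.51, limma adjusted p = 0.00644), and Sdc1, a heparan sulfate carrier of epithelia, at 18.0, 19.7 and 22.9 against 40.8, 75.1 and 81.2 (1.60, adjusted p = 0.0287). Heparan sulfate holds chemokines at cell surfaces. Sdc2 and Ext2, of the same system, did not pass (log2 fold change 0.72 with adjusted p = 0.0589, and 0.43 with adjusted p = 0.0610). Adam10, which sheds Cx3cl1 and Cxcl16, had 34.6 to 35.4 FPKM under f/f against 44.8 to 52.3 under d/d and did not pass (adjusted p = 0.0749). It was named outside the order of p because of its substrates.

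Of 15 tested genes of the NF-kB pathway and the cytokines that induce chemokines, Tlr4 rose, Myd88 fell and 13 did not pass, where 7.3% of all genes tested passed in either direction. Tlr4, the endotoxin receptor gene, had 3.18 to 3.62 FPKM under f/f against 7.67, 11.7 and 7.60 under d/d (log2 fold change 1.14, limma adjusted p = 0.0287). Myd88, the adaptor gene of most Toll-like receptors, had 144 to 236 FPKM under f/f against 39.9 to 56.5 under d/d (log2 fold change -2.07, adjusted p = 0.0116). Acaa1a on the other strand shares 31.7% of Myd88 and had 70.0 to 72.5 FPKM under f/f against 40.1 to 56.1 under d/d. Slc22a14 covers all of Myd88 on the same strand and reached 0.0307 FPKM at most. Fragments from the shared parts cannot be told apart. Next in order of p came Tlr2 (log2 fold change 1.89, adjusted p = 0.0562) and Nfkbiz (1.14, adjusted p = 0.0724). Of 24 tested genes of receptor signalling, Rgs2 was lower, 0 were higher and 23 did not pass, a share lower that is near the 3.81% of all genes tested. Rgs2, which shortens G protein signals, had 193 to 257 FPKM under f/f against 35.3, 51.1 and 32.5 under d/d (log2 fold change -2.51, adjusted p = 0.00644). Grk3, a receptor kinase gene, and Pik3r5, a regulatory subunit gene of PI3K gamma, came next at 0.91 and 1.60 (adjusted p = 0.0589 and 0.0596), and Pik3r5 passed when d/d replicate 2 was left out (adjusted p = 0.0184).

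None of 11 tested interferon gamma genes passed, nor did any of 9 tested genes of other attractants and their receptors. At an unadjusted p under 0.05 it was 2 and 3 of them, where 26.7% of all genes tested were. The interferon gamma receptor gene Ifngr1 had 26.5, 25.0 and 29.5 FPKM under f/f against 42.7, 112 and 51.0 under d/d (limma adjusted p = 0.0951) and passed when d/d replicate 2 was left out (adjusted p = 0.0334). Of the other attractants, the chemerin gene Rarres2 had 177 to 211 FPKM under f/f against 94.2, 129 and 138 under d/d (limma adjusted p = 0.0659). Its receptor gene Cmklr1 had 4.08, 3.72 and 3.01 FPKM under f/f against 5.29, 18.8 and 10.9 under d/d (adjusted p = 0.104), and the platelet chemokine gene Pf4 had 4.42 to 11.5 FPKM under f/f against 9.69, 143 and 31.7 under d/d (adjusted p = 0.234). The median log2 fold changes of the 5 lists, in the order given, were 0.43, 0.95, 0.16, 0.39 and 1.31, and without d/d replicate 2 they were 0.39, 0.30, -0.07, 0.34 and 0.46, where the median of all genes was 0.02 and 0.01. The 5 calls in these lists all held without d/d replicate 2. Of the list genes, 0, 0 and 3 passed without f/f replicates 1, 2 and 3, and 13, 10 and 8 without d/d replicates 1, 2 and 3.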

How the data were processed

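Whole uteri of gestational day 4 gave 3 f/f and 3 d/d libraries, prepared from TRIzol-extracted RNA with a TruSeq kit, per the labels' protocols. The submitters' processing notes name HISAT2 2.2.1, Cufflinks 2.2.1 and both mm9 and mm10, with no role for either build. Annotation, options and strand setting: not given in the sources used here. The values were taken as FPKM as the authors deposited them, a unit inferred because the file headers name none: the values are decimals with totals that differ between libraries. Coordinates are those of GENCODE vM21 (GRCm38), matched by gene ID, which held for 61 of the 68 member rows.

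Of rows that shared a symbol, the one with the highest mean was kept (36 rows removed). Genes with at least 1 FPKM in at least 3 libraries entered limma 3.58.1 (R 4.3.3) on the log2(FPKM + 1) scale (genotype as the only term, two-sided moderated test with a trend on mean level, Benjamini-Hochberg adjustment over all genes tested, called under 0.05), a procedure first tested on simulated data. Exact permutation tests were two-sided. The members, gene lists and rules were chosen with earlier results of these data known. Members called, members without overlap and the 3 highest of each class are given by library, and list genes in order of p, up to 4 each. Gene lists are described by counts and medians, with no set test. Alternatives were another pseudocount, no filter, quantile normalization, median-of-ratios scaling, no trend, array weights, a replicate block and each library left out. Protein motifs of the members were not analysed here. Of the members, 1 is counted in the totals but not reported here by name or value.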

Additional observations from a re-analysis of the deposited data

How the results depend on the processing

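Of 455 member values under 13 alternatives (35 members), 412 kept their direction and side of the threshold. Since 32 of the 35 members were not called, most of these are values that stayed uncalled. A further 14 values lost the call, 8 gained one and 21 turned sign. The lost calls were those of Ackr4 (in 6 of the 13 alternatives), Cx3cl1 (in 4) and Cxcl16 (in 4). The replicate numbers did not pair the libraries (correlations of deviations -0.02, 0.02 and -0.02 for numbers 1, 2 and 3, and not every library correlated best with its own number). With the number as a replicate block, 100 genes, 0 members higher, 0 members lower and 3 list genes changed. With a replicate block the adjusted p of Cx3cl1, Cxcl16 and Ackr4 was 0.0726, 0.0689 and 0.0805. The number of members lower was 0 with a pseudocount of 0.1, 0 with no filter and 2 with quantile normalization. The number of list genes was 8 with quantile normalization and 9 with array weights. With each library left out in turn, 0 to 1367 genes changed (947 with all), 0 to 5 members were higher, 0 to 2 lower, and 0 to 13 list genes passed; the causes were not tested. Members that turned sign without 1 library ranged, on the log2 scale, from -0.78 to 0.34 in Ackr1, -0.0565 to 0.27 in Ackr2, -0.69 to 0.0241 in Ackr3, -0.69 to 1.76 in Ccl5, -0.22 to 1.29 in Ccr2, -1.14 to 1.11 in Cxcl10, -0.35 to 0.30 in Cxcl12, -0.35 to 0.63 in Cxcl14, -0.27 to 2.35 in Cxcl9 and -0.81 to 0.49 in Cxcr3. Cxcl10 was at 0.0350 with array weights and Cxcr3 at 0.10 with quantile normalization. None of these was called. The unknown depth limits what can be said of members below 1 FPKM.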
